A study of Homo sapiens with 5 samples.

Results

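The cytosolic ribosomal protein genes were taken as all probe sets assigned to 1 gene whose symbol is RPL, RPS or RPLP with a number. Pseudogenes, the RPS6 kinases and the mitochondrial ribosomal proteins were left out. The rule found 122 of the 54675 probe sets on the array, which stand for 61 of the 19775 genes with a probe set of their own. Of these, 52 were core genes with 111 probe sets, 32 genes of the large and 20 of the small ribosomal subunit. RPL3L, RPL39L, RPL22L1 and RPS27L, 4 paralogs with 6 probe sets, are given apart, as are 5 further paralogs with 5 probe sets. Another 65 probe sets carried several symbols of which 1 fitted the rule and were not counted as members, so that core genes measured only in that way, RPL5 among them, are absent.

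HEK293 is an established human embryonic kidney line. HEK293-vector cells carry the empty pcDNA4 plasmid (n = 3 arrays) and HEK293-PRL-1 cells stably carry a construct for PRL-1, the tyrosine phosphatase encoded by PTP4A1 (n = 2 arrays), and RNA of separate cultures was hybridised to HG-U133 Plus 2.0 arrays. Another PRL-1 array was left out by the authors because qRT-PCR found no raised PRL-1 in its RNA. The cultures of a group share 1 stable line, so the construct and other features of that line cannot be told apart, and p-values cover only the spread between cultures.

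Each ribosome holds 1 copy of nearly every one of these proteins, and a growing cell spends much of its transcription on them and on ribosomal RNA. Their mRNAs are short, abundant and start with a run of pyrimidines, the 5′ terminal oligopyrimidine (TOP) motif, through which the mTOR pathway and the RNA-binding protein LARP1 control their translation. Some of the genes have paralogs that are used in particular tissues or states, among them RPL3L in striated muscle and RPL39L in male germ cells.

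On the deposited scale 4 probe sets of PTP4A1 differed by 0.06 to 0.15 in log2 signal between the groups (smallest limma adjusted p = 0.737), and their position in the transcript of the construct was not examined. The paper states that earlier work found more PRL-1 mRNA and protein in this line than in its vector control. Since no PTP4A1 probe set was called here, the directions given are those of arrays that carry the PRL-1 label. Vector replicate 3 stood apart, with correlations of 0.938 to 0.947 to the remaining arrays against 0.954 to 0.964 among those. Of 8 HEK293 markers 7 were on the array, of which NEFM lay under a signal of 100 and 6 exceeded it on all arrays. The summed signal of the 7 was 53740 to 63035 in vector cells and 53933 to 54743 on the PRL-1 arrays. Most of that sum came from NEFL and VIM. Log2 differences were 0.94 for KRT8, 0.19 for KRT18, 0.02 for NEFL, 0.003 for CDH2, -0.53 for VIM and -0.75 for PAX2. Among markers of other cells, 3 of 5 for blood, 1 of 3 for endothelium and 2 of 5 for fibroblasts exceeded 100 on all arrays, while PTPRC, CDH5 and COL1A2 lay under it. None of these markers was called, and their part in the results below was not tested.

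The start sites of a few members show what the genes share in sequence. The windows hold 15 bases before and 15 bases from the start that RefSeq annotates on GRCh38.p14, 5′ to 3′ on the strand of the gene, with capitals marking a pyrimidine start. That is a C at the start itself followed by at least 4 further C or T, 5 bases or more in all. RPL36, RPL14, RPL29 and RPL31 are shown because they had the lowest log2 differences among the core genes. RPL22 and RPS27 stand beside their paralogs. RPL24 and RPL35A are shown because they left the pattern of the set, and RPS15 because no pyrimidine start was found at its annotated start. A run of C and T lies farther into the RPS15 window and was not counted.
RPL36: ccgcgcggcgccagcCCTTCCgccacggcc
RPL14: gggcgggtcttcttcCTTCTCgcctaacgc
RPL29: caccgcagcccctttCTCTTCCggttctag
RPL31: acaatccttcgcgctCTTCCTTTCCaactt
RPL24: ttcccatgattctctCTTTCTTTTCgccat
RPL35A: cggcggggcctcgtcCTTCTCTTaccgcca
RPS15: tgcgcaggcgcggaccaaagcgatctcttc
RPL22: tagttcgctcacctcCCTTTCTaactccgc
RPL22L1: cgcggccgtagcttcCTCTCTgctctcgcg
RPS27: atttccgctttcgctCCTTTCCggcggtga
RPS27L: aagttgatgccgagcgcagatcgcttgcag

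The windows lie at chr19:5690280-5690309 on the plus strand for RPL36, at chr3:40457324-40457353 on the plus strand for RPL14, at chr3:51995881-51995910 on the minus strand for RPL29 and at chr2:101002274-101002303 on the plus strand for RPL31. RPL24 is at chr3:101686704-101686733 on the minus strand, RPL35A at chr3:197950175-197950204 on the plus strand and RPS15 at chr19:1438381-1438410 on the plus strand. RPL22 is at chr1:6199581-6199610 and RPL22L1 at chr3:170870181-170870210, both on the minus strand, RPS27 at chr1:153990747-153990776 on the plus strand and RPS27L at chr15:63157463-63157492 on the minus strand. Each window spans the first bases of the first exon and the sequence just before it. A pyrimidine start was found in 34 of the 46 core genes with a promoter in the table (73.9%), against 5.14% of all genes there. RPL22L1 has such a tract, as its parent RPL22 does, whereas none was found at the annotated start of RPS27L.

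Most of the core genes were measured at high signal and together. Each of the 52 had a tested probe set, with a MAS5 signal (the deposited intensity, scaled to a trimmed mean of 500 on each array) of at least 100 on at least 2 arrays, and 105 of the 111 core probe sets passed this filter. A gene was represented by its brightest tested probe set, by mean log2 signal. That probe set had a mean signal of at least 10000 in 49 genes, and of 1060, 294 and 286 in RPL27A, RPLP2 and RPL36A. On the PRL-1 arrays 50 of 52 core genes had a log2 signal under the vector mean, with a median log2 difference of -0.23, quartiles of -0.26 and -0.19 and a range from -0.45 to 0.15. Over all 33818 tested probe sets 55.1% lay under 0 and the median was -0.04. In bulk RNA fewer cells of a kind and less RNA per cell cannot be told apart.

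No core gene was called by limma, where 65 of the 33818 tested probe sets were (0.192%, Benjamini-Hochberg adjusted p at or below 0.05). At an unadjusted p under 0.05 limma found 2 of 52, RPL36 and RPL14, against 9.72% of all tested probe sets, and the methods' t-test found 0, against 8.59%. The median half-width of the 95% interval was 0.38 in log2 signal, wider than the median difference itself. In 7 genes both PRL-1 arrays lay under all 3 vector arrays, which 16.1% of all tested probe sets did, and in 0 they lay above, which 12.8% did. The median SD of log2 signal over the core genes was 0.28 in vector cells and 0.031 on the PRL-1 arrays, and over all tested probe sets 0.23 and 0.14.

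**Figure D1:**
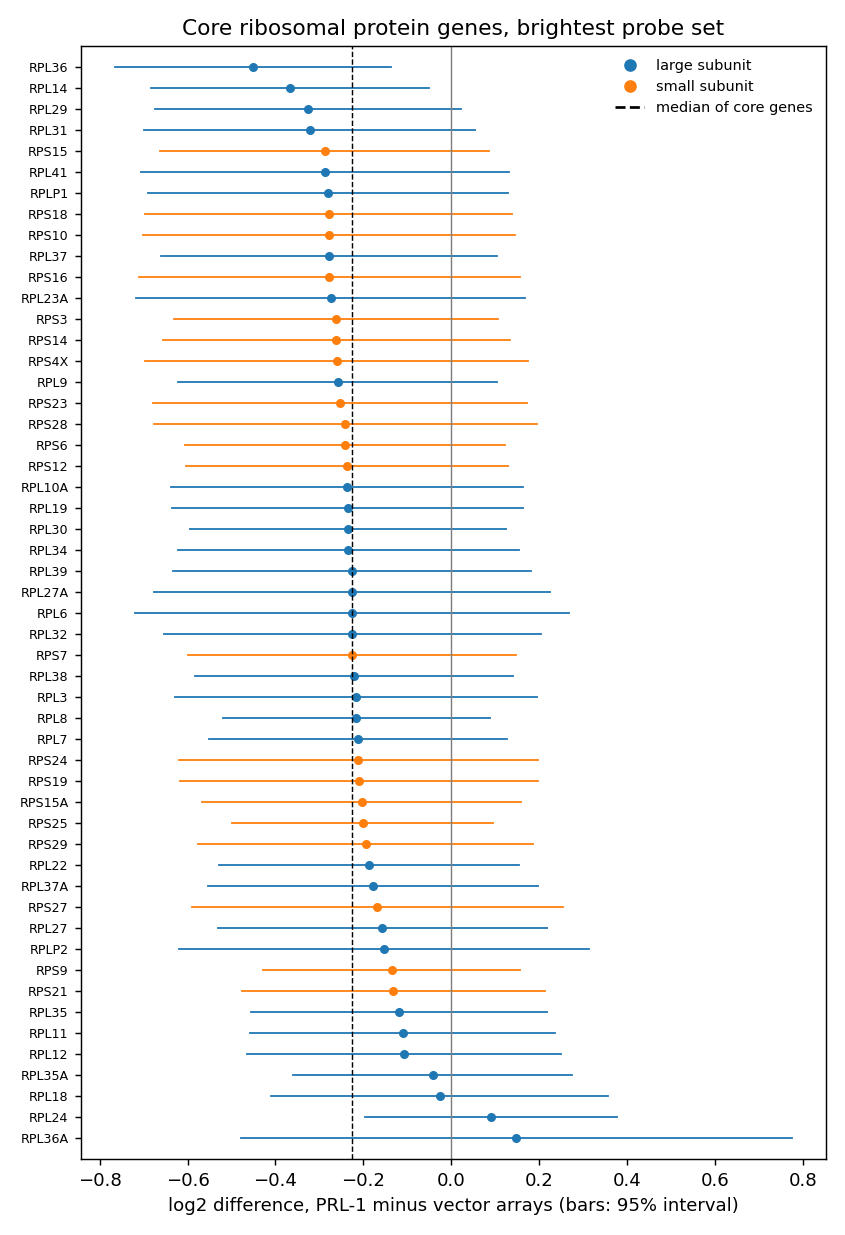
Log2 difference between the PRL-1 and the vector arrays (x axis) of the 52 core genes, each through its brightest probe set, with limma's 95% interval, the large subunit in blue and the small subunit in orange, and the median of -0.23 dashed. The intervals of RPL36 and RPL14 lie under 0 and the other 50 contain it.

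The spread among the vector arrays followed 1 pattern through nearly all core genes. Relative to the vector mean, the median log2 signal of the core genes was -0.27, -0.01 and 0.28 on vector replicates 1, 2 and 3, whereas both PRL-1 arrays lay under that mean, at -0.23 and -0.22. The PRL-1 arrays therefore lay near vector replicate 1, and the median difference between the groups was smaller than the distance between vector replicates. In 49 of 52 core genes vector replicate 1 was the lowest and vector replicate 3 the highest vector array, an order that 25.7% of all tested probe sets had. The exceptions were RPL24, RPL35A and RPL36A. The summed signal of the core genes was 82.1%, 97.5% and 120.4% of the vector mean on the vector arrays and 84.2% and 85.2% on the PRL-1 arrays. Without vector replicate 3 the median log2 difference was -0.08 with 45 genes under 0, and without vector replicate 1 it was -0.36 with 50 genes under 0. In that setting 37 of 52 core genes had an unadjusted p under 0.05, against 9.53% of all tested probe sets, and none was called.

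A difference of like size and direction was found in RNA that does not come from the cells. The hybridisation controls are labelled transcripts of the bacterial genes bioB, bioC and bioD and of the phage gene cre, which the manufacturer's standard procedure adds to each hybridisation mix. No source used here states whether the 5 arrays received equal amounts, which limits what a difference in them can show. Several of their 18 probe sets measure the same transcript. All 18 were lower on the PRL-1 arrays than the vector mean, with a median log2 difference of -0.26 and a range from -0.40 to -0.19. In 12 of them both PRL-1 arrays lay under all vector arrays, which 16.1% of all tested probe sets did. Their medians by array were -0.23, 0.07 and 0.12 for the vector arrays and -0.30 and -0.26 for the PRL-1 arrays. The 4 cre probe sets, whose mean signals of 35047 to 49016 lay in the range of the core genes, had medians of -0.30, -0.01 and 0.32 on the vector arrays and of -0.27 and -0.24 on the PRL-1 arrays, and the groups overlapped in all 4. The dimmer bioB and bioC probe sets lay as low on the PRL-1 arrays but differed in the vector order. Their vector medians were -0.19, 0.09 and 0.06 for bioB (n = 6) and -0.15, 0.10 and 0.04 for bioC (n = 4), so that vector replicate 3 did not stand above replicate 2 as it did in cre and the core genes. With each array centred on the 18 control probe sets, a setting chosen after the data were seen, the median log2 difference of the core genes was 0.05, 12 of 52 lay under 0 and 0 were called. The median of all tested probe sets was then 0.24 and 233 of them were called (0.689%).

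**Figure D2:**
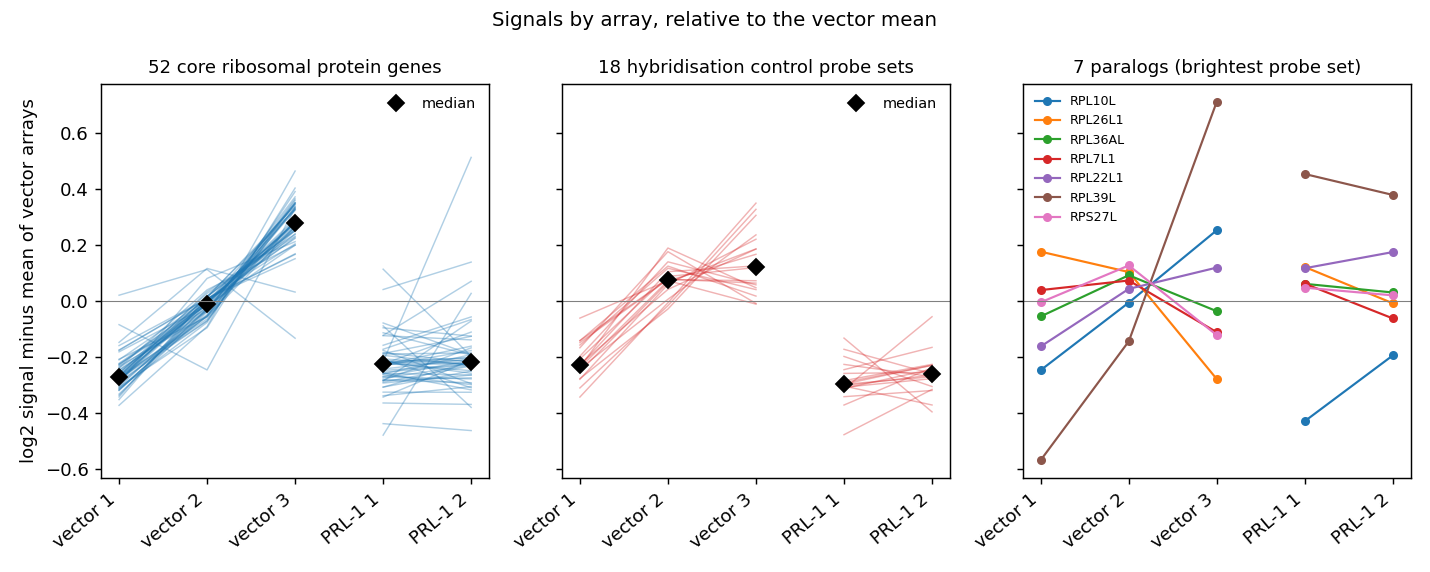
Log2 signal on each array minus the mean of the 3 vector arrays (y axis) for the 52 core genes, the 18 hybridisation control probe sets and the 7 tested paralogs, with 1 line per gene or probe set within a group and medians as diamonds. The core genes reach a median of 0.28 on vector replicate 3 and lie near -0.23 on both PRL-1 arrays, where the controls lie at -0.30 and -0.26, while most paralogs do not follow the vector order of the core genes.

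Other transcripts of very high signal had the same pattern by array. Among the 170 tested probe sets with a mean signal of at least 30000, 54 belonged to core genes and 34 carried several symbols with 1 of the rule. The other 82 include glycolytic enzymes, actins and transcripts of the mitochondrial genome. They also include EEF1A1, EEF2, NACA, TPT1 and NPM1, which are on the list of TOP mRNAs compared further on. Probe sets of ribosomal protein pseudogenes were not removed from them. The 82 had a median log2 difference of -0.20, with 78 under 0. Their medians by array were -0.25, -0.02 and 0.28 for the vector arrays and -0.22 and -0.18 for the PRL-1 arrays. Other probe sets of at least 20000 (n = 190) gave a median of -0.17 and those of at least 10000 (n = 559) a median of -0.08. The core probe sets themselves divided in the same way: 69 of at least 10000 had a median of -0.23 with 67 under 0, and 36 dimmer ones a median of -0.04 with 20 under 0.

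**Figure D3:**
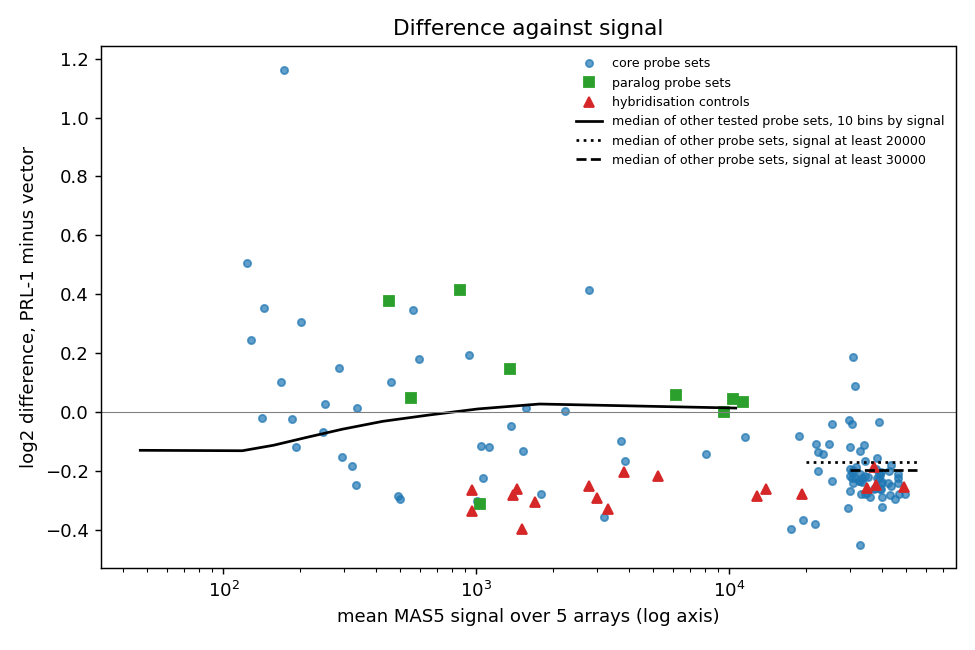
Log2 difference (y axis) against the mean MAS5 signal over the 5 arrays (x axis, log scale) for core probe sets (circles), paralog probe sets (squares) and hybridisation controls (triangles), with medians of other tested probe sets in 10 bins by signal (line) and above 20000 and 30000 (dotted and dashed). The bright core probe sets gather at the level of the other probe sets of at least 30000 (-0.20), and the dimmer ones scatter about a median of -0.04.

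Small and large subunit genes had like differences. All 20 small subunit genes lay under 0 (median -0.24) and 30 of 32 large subunit genes did (median -0.23). The 6 measured proteins around the exit tunnel, through which the nascent chain leaves, had a median of -0.23. A list of RPS3, RPS9, RPS15 and RPS23, of the mRNA channel and decoding site, together with RPS12 had one of -0.25. The 13 measured genes in which mutations cause Diamond-Blackfan anaemia had a median of -0.19, and all 13 lay under 0. The core genes with and without a pyrimidine start had medians of -0.22 (n = 34) and -0.23 (n = 12). Outside the ribosomal proteins, 752 measured genes with such a start had a median of -0.05 and 10863 without one a median of -0.03. Both splits rest on the annotated start. A tract that begins a few bases from it, as in the windows of RPL10A and RPS15, was not counted.

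RPL36, RPL14, RPL29 and RPL31, 4 proteins of the large subunit, had the lowest differences. RPL36 gave signals of 32401, 36301 and 42194 on the vector arrays and 27128 and 26665 on the PRL-1 arrays. The groups did not overlap, and the log2 difference was -0.45 (95% interval -0.76 to -0.14, limma adjusted p = 0.349). Its second tested probe set, with a mean signal of 123.4, gave 0.51 (-0.72 to 1.74). RPL14 gave 18466, 21459 and 24602 on the vector arrays against 16597 and 16538 on the PRL-1 arrays. These did not overlap either, with a log2 difference of -0.37 (-0.68 to -0.05, adjusted p = 0.450), and a second bright probe set gave -0.40 (adjusted p = 0.325). A dim RPL14 probe set differed in sign, at 1.16 with an interval of -0.39 to 2.71.

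RPL29 lay at 26617, 32428 and 37352 on the vector arrays and at 25399 and 25391 on the PRL-1 arrays. Both PRL-1 arrays were under the lowest vector array, by less than the vector arrays differed among themselves, and the log2 differences of its 2 bright probe sets were -0.33 and -0.38 (adjusted p = 0.533 and 0.451). RPL31, which borders the exit tunnel, gave 35558, 43827 and 52281 on the vector arrays against 34290 and 35071. Its difference of -0.32 had an interval of -0.70 to 0.05. RPS15, a small subunit protein near the decoding site, gave 31667, 38041 and 46563 on the vector arrays and 31462 and 31269 on the PRL-1 arrays, a difference of -0.29 (-0.66 to 0.09), and RPL37, a zinc-binding protein of the large subunit, one of -0.28 (-0.66 to 0.10). With each array centred on the median of the core genes, RPL36 differed by -0.25 and RPL14 by -0.17, neither with a call. After quantile normalization RPL36, RPL14, RPL29 and RPL24 were the 4 core genes with an unadjusted p under 0.05, at -0.29, -0.28, -0.18 and 0.26. The share over all tested probe sets was 9.98%, and none of the 4 was called (smallest adjusted p = 0.204).

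RPL24, RPL35A, RPL18 and RPL36A lay farthest above the other core genes. RPL24, which forms a bridge to the small subunit, gave 27657, 33210 and 31324 on the vector arrays and 31521 and 33736 on the PRL-1 arrays. The groups overlapped, with a log2 difference of 0.09 (-0.20 to 0.38). In its second bright probe set both PRL-1 arrays, at 30843 and 35819, lay above the highest vector array at 30629, with a difference of 0.19 (-0.11 to 0.48, adjusted p = 0.684). After quantile normalization that probe set gave 0.36 (adjusted p = 0.201). RPL35A gave 31152, 33202 and 28009 against 33227 and 26790, with a difference of -0.04, and here vector replicate 3 was the lowest vector array. RPL18, another large subunit protein, had a difference of -0.03 (-0.41 to 0.36). RPL36A, an X-linked gene measured only at low signal, gave 253, 226 and 337 on the vector arrays against 231 and 383, with a difference of 0.15 (-0.48 to 0.77).

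**Figure D4:**
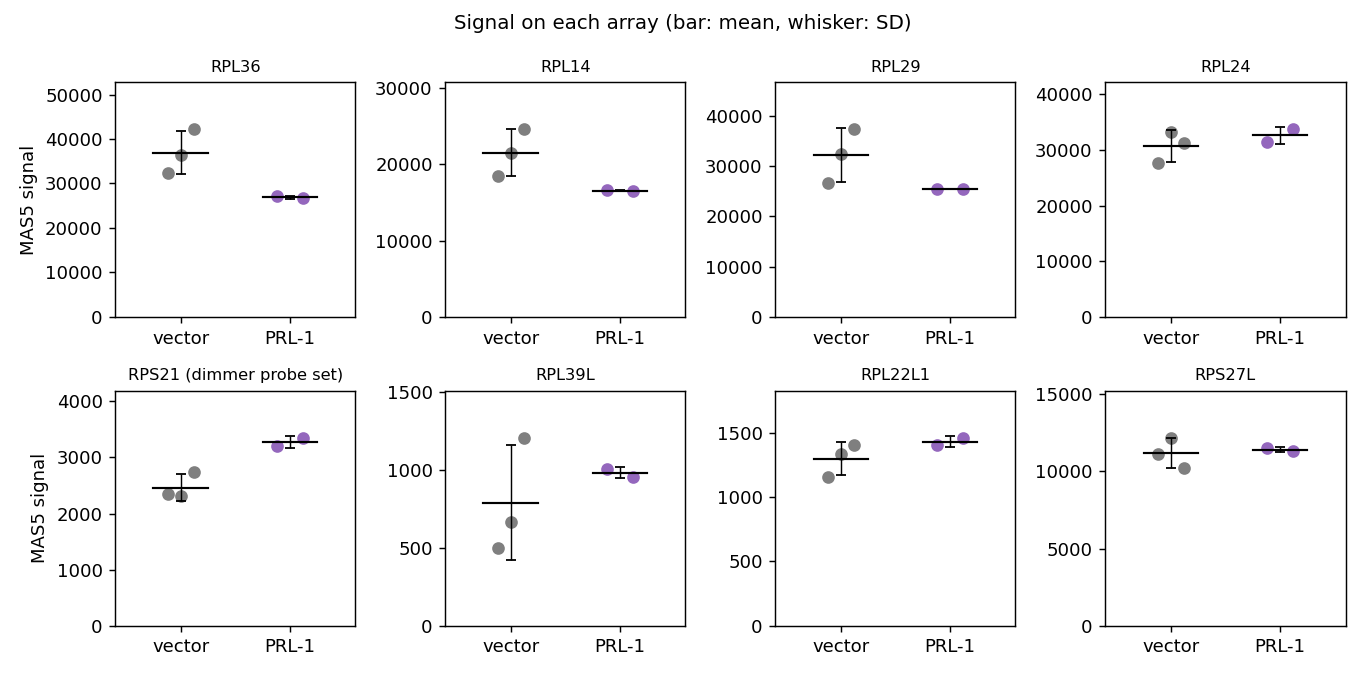
MAS5 signal on each array (points) for 8 probe sets in vector (n = 3, grey) and PRL-1 (n = 2, purple) cells, with means as bars and SD as whiskers, each axis starting at 0. The groups do not overlap for RPL36, RPL14, RPL29 and the dimmer RPS21 probe set, and overlap for RPL24, RPL39L, RPL22L1 and RPS27L.

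The P stalk of the large subunit recruits the elongation factors. Of its members RPLP1 gave 37905, 43787 and 58595 on the vector arrays and 38312 and 37388 on the PRL-1 arrays, a log2 difference of -0.28 (-0.69 to 0.13). RPLP2, its partner, was measured through a probe set of low signal at 260, 306 and 356 against 281 and 266 (-0.15), and RPL12, which anchors the stalk, differed by -0.11. RPL11, which enters the ribosome with the 5S RNA and can bind MDM2, also differed by -0.11 (-0.46 to 0.24). The X-linked RPS4X, a small subunit protein that escapes X inactivation, gave -0.26 and RPL39, at the exit tunnel, -0.23. FAU, which encodes a ribosomal protein fused to a ubiquitin-like protein and was the only such gene outside the symbol rule with a probe set of its own, gave -0.13. None of these was called.

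Probe sets of 1 gene agreed where they were bright. Of 31 core genes with several tested probe sets, 18 had the same sign in all of them, with a median range of 0.18 in log2 difference between the probe sets of a gene. Over the 15 genes with several probe sets of at least 10000 the median range was 0.05 and the highest 0.18. RPL14, RPL36 and RPS15 had the widest ranges over all their probe sets, each through 1 probe set with a mean signal under 200. The core probe set with the smallest adjusted p was a dimmer one of RPS21, a small subunit protein, at 2339, 2318 and 2732 on the vector arrays and 3203 and 3346 on the PRL-1 arrays. These did not overlap, with a log2 difference of 0.41 (0.14 to 0.69, adjusted p = 0.307), whereas the brightest RPS21 probe set gave -0.13 (-0.48 to 0.21). Without vector replicate 3 the dimmer probe set was called (0.49, adjusted p = 0.0368), as were 0.926% of all tested probe sets.

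The paralogs had log2 differences of either sign. None was called by limma, and at an unadjusted p under 0.05 limma and the methods' t-test each found 0 of their probe sets. RPL39L, the autosomal paralog of RPL39, gave 496, 665 and 1203 on the vector arrays and 1006 and 955 on the PRL-1 arrays. The PRL-1 arrays lay between vector replicates 2 and 3, with a log2 difference of 0.42 (-0.29 to 1.12, adjusted p = 0.706) against -0.23 for RPL39. Without vector replicate 3 the difference of RPL39L was 0.77 (adjusted p = 0.0612).

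RPL22L1, which can take the place of RPL22 and lies on another chromosome, gave 1157, 1334 and 1406 on the vector arrays and 1404 and 1461 on the PRL-1 arrays. The groups overlapped narrowly, with a difference of 0.15 (-0.15 to 0.44, adjusted p = 0.752) against -0.19 for RPL22. RPS27L, a paralog of RPS27 that p53 induces, gave 11112, 12171 and 10245 against 11521 and 11304, a difference of 0.03 (-0.23 to 0.30, adjusted p = 0.949), where RPS27 gave -0.17. Its other tested probe sets gave 0.05 and 0.38. RPL3L had signals of 66, 16 and 88 on the vector arrays and 50 and 22 on the PRL-1 arrays, all under 100, and was not tested, while RPL3 gave -0.22. The differences between a paralog and its parent were not tested.

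Of the 5 further paralogs 4 are described. RPL10L, an autosomal retrogene copy of RPL10, gave 940, 1111 and 1329 on the vector arrays against 829 and 975, a log2 difference of -0.31 (-0.70 to 0.07, adjusted p = 0.595). Whether its probes also hybridise to RPL10, which is nearly identical, was not tested. RPL26L1 gave 6795, 6461 and 4957 against 6543 and 5980 (0.06), RPL36AL 9857, 10914 and 9984 against 10685 and 10458 (0.05), and RPL7L1 9810, 10045 and 8837 against 9966 and 9145 (-0.00). In these 3 genes vector replicate 3 was not the highest vector array, as it was in 50 of 52 core genes.

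Genes that work with the ribosomal proteins were compared through lists. The 17 measured genes from a list of TOP mRNAs outside the set, among them elongation and initiation factors, had a median log2 difference of -0.20. Of these 16 lay under 0. Their medians by array were -0.19, -0.02 and 0.25 for the vector arrays and -0.20 and -0.17 for the PRL-1 arrays. A promoter was in the table for 11 of them, of which 9 had a pyrimidine start. The listed genes were bright, with a median signal of 19320. Probe sets of at least 20000 outside the core genes had a median difference of -0.17. Those include the brighter listed genes, such as EEF1A1, NPM1 and BTF3, so the sets overlap. Whether brightness or the TOP motif goes with their difference was not tested. VIM, the intermediate filament vimentin, gave -0.53 (adjusted p = 0.314), EIF4B, an initiation factor, -0.33, HNRNPA1, an RNA-binding protein, -0.35 and EEF1D, an elongation factor, 0.30. The 26 ribosome biogenesis factors had a median of 0.09 with 8 under 0, and on vector replicate 3 their median lay at -0.23, opposite to the core genes. The lists of RNA polymerase I and of mitochondrial ribosomal proteins, described below, lay under 0 on that array too, at -0.16 and -0.15. So did the probe sets outside the set in bins 9 and 10 of the 10 by rising signal, at -0.06 and -0.07. GRWD1, a nucleolar histone-binding factor, gave 0.77 (adjusted p = 0.306), BCCIP, another chaperone of the large subunit, 0.49, NOP10, of the pseudouridylation particles, 0.26 and NOLC1, a nucleolar phosphoprotein, -0.32.

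The 19 subunits and factors of RNA polymerase I, which makes ribosomal RNA, had a median of 0.13 with 5 under 0. POLR1G gave 0.51 (adjusted p = 0.306), POLR2H, shared by the nuclear polymerases, 0.43, TAF1A 0.33 and UBTF, which binds the rDNA promoter, -0.29. Of 12 regulators of ribosomal protein synthesis, with a median of -0.02, the transcription factor MYC had the smallest p, at 4370, 5188 and 5548 on the vector arrays and 6970 and 6952 on the PRL-1 arrays. These did not overlap, with a log2 difference of 0.47 (adjusted p = 0.288). Its partner MAX gave 0.23, the mTOR target EIF4EBP1 -0.46 and the mTOR complex subunit MLST8 -0.22. The 75 mitochondrial ribosomal proteins, which serve the separate ribosome of mitochondria, had a median of 0.02 with 32 under 0, among them MRPL3 at 0.59 (adjusted p = 0.290), MRPS22 at 0.42, MRPL10 at -0.47 and MRPL38 at -0.33. None of the genes in these lists was called.

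**Figure D5:**
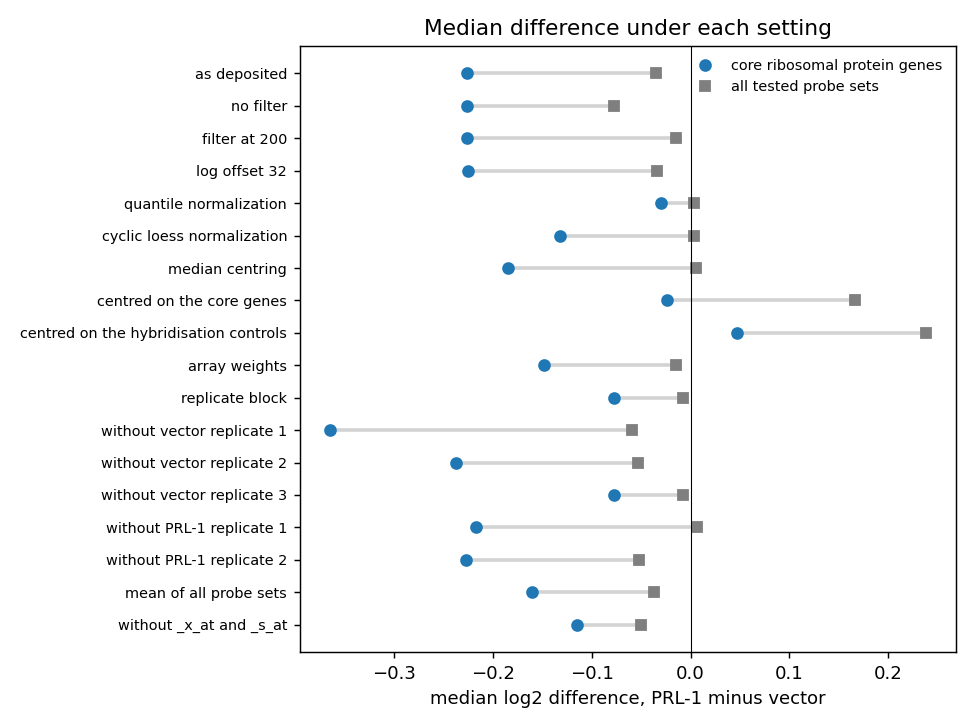
Median log2 difference between the groups (x axis) of the core genes (circles) and of all tested probe sets (squares) under each setting (y axis). The median of the core genes lies at -0.23 as deposited, at -0.03 after quantile normalization, at -0.36 and -0.08 without vector replicate 1 and 3, and at 0.05 with the arrays centred on the hybridisation controls.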

How the data were processed

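RNA of 3 HEK293-vector and 2 HEK293-PRL-1 cultures was hybridised to 1 array each. The values that the authors deposited are MAS5 intensities, linear and 1 for each probe set, from the affy package at its defaults. MAS5 corrects each probe by its mismatch partner, combines the probes robustly and scales each array, here to a mean of 500 after trimming 2% at each end. Presence calls were not used. Tests left out the 62 control probe sets, and 33818 of 54675 probe sets with a signal of at least 100 on at least 2 arrays were kept. Gene names came from the platform annotation, updated by gene identifier to the GRCh38.p14 gene table, and 41037 of 41091 probe sets with 1 symbol matched. Another 1801 carried several symbols and 11721 were not listed, and none of these is named.

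The limma package (version 3.58.1, under R 4.3.3) fitted log2 signals by lmFit with a term for group alone, and its eBayes step used a trend over intensity, with two-sided tests. A Benjamini-Hochberg adjusted p at or below 0.05 over all tested probe sets was a call. The fit was tested on simulated data. The methods' t-test (equal variance) was run on the same values. Start windows and motifs come from RefSeq promoters on GRCh38.p14, found for 46 of 52 core genes. The array's probe sequences were not used here, and precision is limited by how few arrays there are.

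Members, gene lists, alternatives and the naming rule were chosen with earlier results of these data known. The rule takes the paralogs and their parents, the 6 core genes with the smallest p, the 4 farthest below and the 4 farthest above the median of the core genes, the 3 whose probe sets differed most, the P stalk, 5S and X-linked members, and the 4 genes with the smallest p of each list. The dimmer RPS21 probe set was chosen after its values were seen, as were the splits at signals of 10000, 20000 and 30000. Alternatives covered the filter, a log offset of 32, the normalization and centring, the trend, array weights, a replicate block, each array left out, and the choice of probe set.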

Additional observations from a re-analysis of the deposited data

How the results depend on the processing

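In all alternatives run, 0 core genes were called. The median log2 difference of the core genes lay between -0.36 without vector replicate 1 and -0.03 after quantile normalization in the alternatives chosen at the start, leaving aside the centring on the core genes, which sets it near 0 by construction (-0.02). It was 0.05 with the arrays centred on the hybridisation controls, an alternative added after the data were seen. It was -0.13 after cyclic loess, -0.18 after median centring, -0.15 with array weights, -0.16 with the mean of all probe sets of a gene and -0.23 with the probe sets of several symbols added, also after the data were seen. Leaving out 1 array gave medians from -0.36 to -0.08 and 45 to 50 genes under 0, the lowest count without vector replicate 3. Genes under 0 numbered 12 of 52 with the arrays centred on the controls, 34 of 52 after quantile normalization and 15 of 26 without probe sets ending in _x_at or _s_at, where only 26 core genes have a probe set. With a replicate block the median was -0.08 with 45 genes under 0. There 1 paralog was called, RPL39L (0.77, adjusted p = 0.0375), as were the dimmer RPS21 probe set (0.49, adjusted p = 0.0337) and MYC (0.55, adjusted p = 0.0302), while calls over all probe sets went from 65 to 448. That block rests on the numbers 1 and 2 alone, which vector replicate 3 does not share, so its estimates equal those without that array (MYC adjusted p = 0.0437, 313 calls over all probe sets). Deviations of same-numbered arrays correlated at 0.064 and -0.059, which in a group of 2 arrays mirror each other, so the numbers were not taken as pairs. Over the named genes 812 values kept their side of the threshold and 4 were called under an alternative, the remaining one being MRPL3 with the arrays centred on the controls (0.86, adjusted p = 0.0291). On the deposited scale, with 3 and 2 arrays, the half-width of the 95% interval exceeded the core median difference in all 52 genes. Most alternatives gave the same count against that deposited median. The count was 46 after cyclic loess, 33 without vector replicate 3 and 4 after quantile normalization, so the width depends on these choices too.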
